A study of Mus musculus with 6 samples.

Results

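Messenger RNA of 39 autophagy and lysosome genes was followed in mouse calf muscle after radiotherapy of a distant tumour. The genes were chosen by name, as the core machinery from the start of autophagosome formation to the lysosomal membrane, and each of the 39 names had a row in the deposited table of 55995 features. Of these, 38 had a mean of at least 1 TPM (a length-scaled transcript abundance that sums to the same total in each library) over the 6 libraries and were tested among 11938 such features. Atg4c was the gene not tested.

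The muscle was the gastrocnemius (GA) of NSG mice (NOD/SCID/IL2Rγ-null), a strain without mature lymphocytes, in which neutrophils and macrophages remain. All mice, controls included, had received wild-type MDA-MB-231 cells, a human triple-negative breast cancer line, with Matrigel under the skin of the left flank. In the radiotherapy group (3 libraries) the tumour alone received 10 Gy of 6 MV X-rays at 6 Gy/min once it measured about 800 mm3, and the muscle of the opposite side was taken after 3 days. The control group (3 libraries) had tumours that were not irradiated. The size of the control tumours, the day their muscle was taken and the age of the mice are not stated in the labels used here. Nor do they tie each library to its own mouse, and the spread behind every p-value may therefore be technical.

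Autophagy encloses cytoplasm in a double membrane and delivers it to the lysosome. The ULK1 kinase complex starts the process, a lipid kinase complex built on the PI3-kinase VPS34 marks the membrane, and WIPI, ATG2 and ATG9 proteins bring lipids to the growing phagophore. A ubiquitin-like conjugation system then attaches ATG8 proteins (the LC3 and GABARAP families) to the membrane, where receptors such as p62 tether their cargo. In skeletal muscle, autophagy removes damaged mitochondria and protein aggregates and takes part in fibre wasting, and loss of the lysosomal protein LAMP2 causes a vacuolar disease of heart and skeletal muscle.

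The libraries held abundant fibre transcripts, as the tissue label requires: all 12 skeletal muscle fibre markers were found, and they summed to 103800 to 123100 TPM in the controls and to 147100, 145900 and 96810 TPM in radiotherapy replicates 1, 2 and 3. Replicates 1 and 2 were thus above every control and replicate 3 below. Since TPM sums to the same total in each library, every value is relative to all other RNA, and read depth is unknown. Genes of the mitochondrial genome and the 20 most abundant genes together took 57.7% and 59.3% of all TPM in radiotherapy replicates 1 and 2, against 36.8% to 48.0% in the controls and 34.3% in radiotherapy replicate 3. Radiotherapy replicate 3 stood apart in another way: 12 neutrophil markers summed to 2979 TPM there, against 74.7 to 186 TPM in the controls and 11.2 and 18.7 TPM in the other two radiotherapy libraries. Macrophage markers summed to 468 TPM in that library, to 73.6 and 118.3 TPM in radiotherapy replicates 1 and 2 and to 79.9 to 253.8 TPM in the controls. Of the 12 macrophage markers, 5 were above every control in radiotherapy replicate 3, against 12 of the 12 neutrophil markers. Of the neutrophil markers, 2 (Mpo and Elane) were under 1 TPM in every library. Slow muscle fibre markers summed to 975.7, 80.6 and 1316 TPM in controls 1, 2 and 3 and to 1008, 1887 and 228 TPM in radiotherapy replicates 1, 2 and 3. Endothelial markers summed to 93.8 to 109.2 TPM in the controls and to 75.01, 70.2 and 194.5 TPM after radiotherapy, and tendon markers to 8.23 to 18.8 TPM in the controls and to 55.9, 43.7 and 8.8 TPM after radiotherapy. In bulk tissue, fewer cells of a type and less RNA per cell cannot be told apart. Results below are therefore given with and without radiotherapy replicate 3, and for scaled values as well. The part of these marker levels and of the top-gene share in the results was not tested.

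Averaged on the log2(TPM + 1) scale over the 3 libraries of each group, all 38 tested genes were at a lower level after radiotherapy, but none passed the test against the spread between libraries. The mean of the TPM values themselves was higher after radiotherapy for 4 of them, Atg14, Pik3r4, Wipi1 and Gabarapl1. By limma on log2(TPM + 1), with Benjamini-Hochberg adjustment over all tested genes, the adjusted p of the 38 genes ran from 0.299 to 0.927. The threshold of 0.05 was passed by 0 of 38, beside 0.0586% of all tested genes. At an unadjusted p under 0.05, 6 of the 38 were lower and 0 were higher, and over all tested genes 1584 were lower and 141 higher. The direction was common in these data: 100% of the 38 genes and 78.5% of all tested genes had a log2 change below 0. The median log2 change was -0.59 for the autophagy and lysosome genes and -0.36 for all tested genes, and 27 of the 38 lay below the median of all genes. In each of the 3 radiotherapy libraries, 8 genes (21.1%) were below every control library, a share near the 19.3% of all tested genes. These were Ulk2, Pik3c3, Atg2b, Atg9a, Map1lc3a, Bnip3, Fundc1 and Lamp2. None of the 38 was above every control in all 3 radiotherapy libraries, beside 1.73% of all tested genes.

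The 3 radiotherapy libraries did not go the same way. In replicates 1 and 2, 34 of the 38 genes (89.5%) were below every control library, beside 58.8% of all tested genes, and the exceptions were Ulk1, Atg4a, Atg7 and Atg10. In replicate 3, 18 of the 38 (47.4%) were above every control library, beside 31.5% of all tested genes. Both held together for 17 genes (44.7%), beside 19.3% of all tested genes. The median difference of the 38 genes from the control mean was -0.92 and -0.97 on the log2 scale in replicates 1 and 2, where that of all tested genes was -0.53 and -0.61, and 0.24 in replicate 3, where that of all genes was -0.01. Each control library differed from the mean of the other two by a median of 0.12, 0.17 and -0.30.

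**Figure D1:**
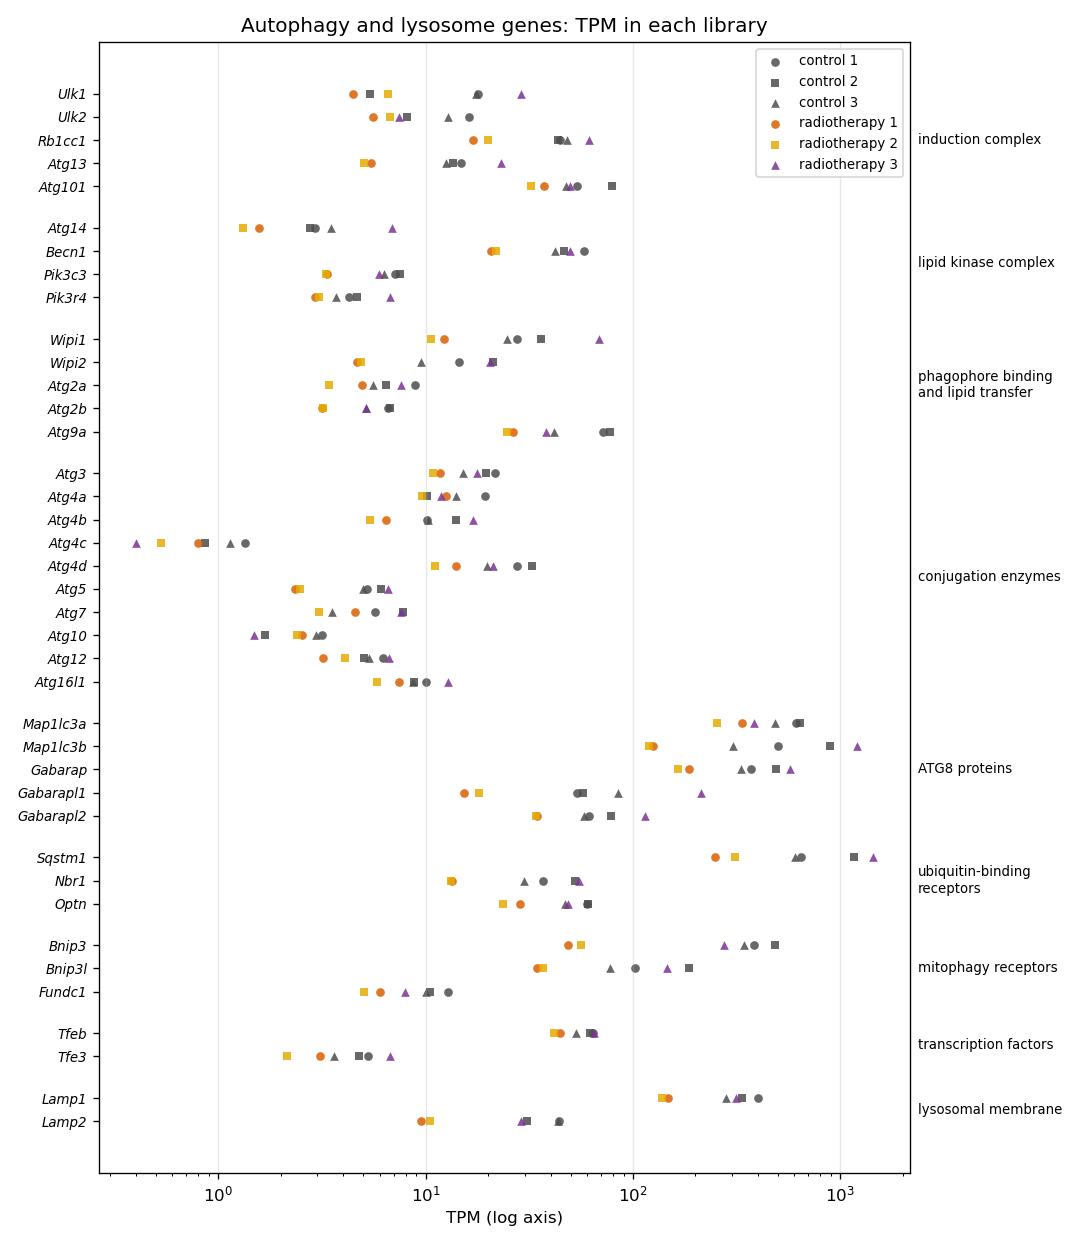
Level of each of the 39 genes in each of the 6 libraries, as TPM on a log axis, grouped by step of autophagy. Grey symbols are the 3 controls and coloured symbols the 3 radiotherapy libraries. In 34 of the 38 tested genes radiotherapy replicates 1 and 2 lie left of every control, while radiotherapy replicate 3 lies right of every control in 18. The shares of all tested genes were 58.8% and 31.5%.

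When radiotherapy replicate 3 was left out, 25 of the 38 genes (65.8%) were lower at the adjusted threshold and 0 were higher, beside 27.6% of all tested genes called lower. The adjusted p then ran from 0.0103 for Bnip3 to 0.939 for Atg10, and the median log2 change was -0.94, against -0.57 for all tested genes. Since TPM is relative, the values were also scaled by the median of ratios, which sets each library's typical gene to the same level. On that scale all tested genes had a median log2 change of 0.02 and the autophagy and lysosome genes one of -0.18, with 25 of the 38 (65.8%) below 0, beside 48.4% of all genes. On that scale 7 genes (18.4%) were below every control in all 3 radiotherapy libraries, beside 8.99% of all genes. They were Pik3c3, Atg2b, Atg9a, Optn, Bnip3, Fundc1 and Lamp2, so Ulk2 and Map1lc3a were no longer separated there. In the other direction, 2 genes, Atg16l1 and Tfeb, were above every control in all 3 radiotherapy libraries on that scale. The share of all genes was not counted for that description. With this scaling and without radiotherapy replicate 3, an alternative chosen after seeing the data, 2 genes (5.26%) were called lower, beside 2.64% of all genes. These were Bnip3, with a log2 change of -2.20 and an adjusted p of 0.0176 by limma, and Lamp2, with -1.19 and 0.041. No other gene of the 38 was called lower or higher there. Calls given below for single steps without radiotherapy replicate 3 are those of the unscaled values unless stated, where 27.6% of all tested genes were called lower. Counts by step below are to be read beside the shares of all tested genes. These were 58.8% below every control in radiotherapy replicates 1 and 2, and 31.5% above every control in replicate 3. Over all 6 libraries and without scaling, Bnip3 and Lamp2 had the lowest log2 changes of the 38 genes.

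**Figure D2:**
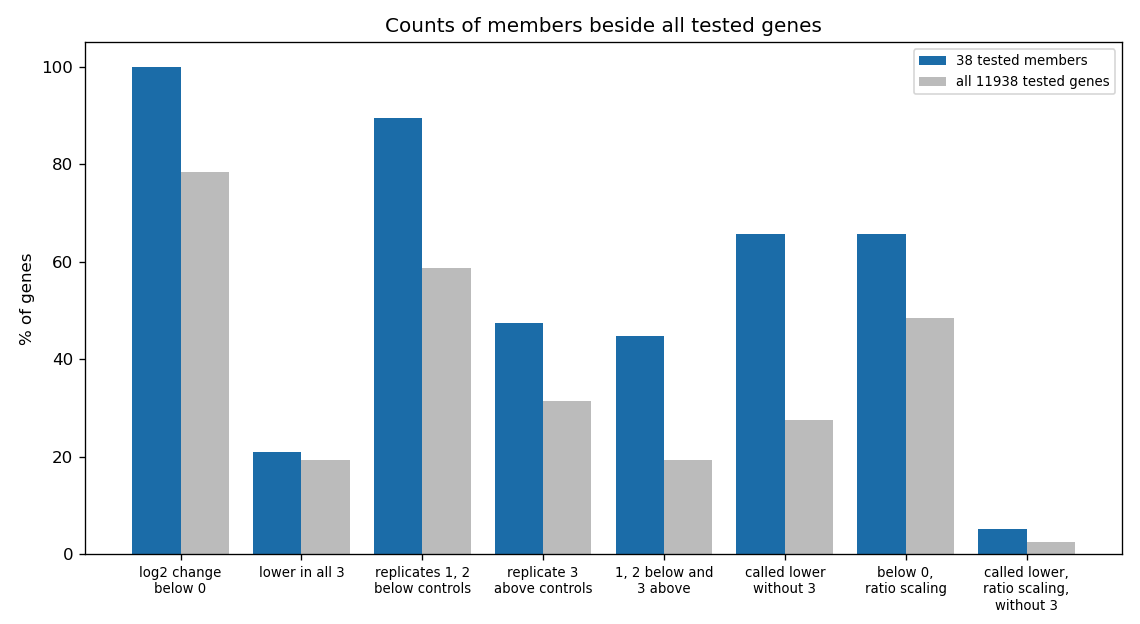
Percent of the 38 tested autophagy and lysosome genes (blue) and of all 11938 tested genes (grey) that met each description on the horizontal axis, where 1, 2 and 3 are the radiotherapy replicates and ratio scaling is median-of-ratios scaling. The bars for lower in all 3 are near each other at 21.1% and 19.3%, while those for replicates 1 and 2 below every control are 89.5% and 58.8%.

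The transcription factors TFEB and TFE3 drive lysosomal and autophagy genes when they enter the nucleus, a step that their own mRNA does not report. Tfeb was at 64.2, 62.0 and 52.8 TPM in controls 1, 2 and 3 and at 44.7, 41.6 and 64.7 TPM in radiotherapy libraries 1, 2 and 3. The first pair of radiotherapy libraries was below every control and the last above, so the groups overlapped. The mean was 59.7 ± 6.04 TPM in controls and 50.3 ± 12.5 TPM after radiotherapy (SD, n = 3 each), a log2 change of -0.26 (SE 0.29, limma adjusted p = 0.643). Tfe3, at 3.63 to 5.27 TPM in controls, had the same order of libraries, with 3.1, 2.14 and 6.76 TPM after radiotherapy (adjusted p = 0.742). Neither was called without radiotherapy replicate 3, where the adjusted p was 0.0932 for Tfeb and 0.0922 for Tfe3 by limma. Under median-of-ratios scaling both log2 changes were above 0, at 0.20 for Tfeb and 0.11 for Tfe3. On that scale Tfeb was above every control in all 3 radiotherapy libraries, with a limma adjusted p of 0.734.

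TFEB and TFE3 bind E-box sequences with the core CACGTG. A window of 250 bases before to 50 bases after the start of the gene was held by RefSeq's promoter table (build GRCm38.p6) for 32 of the 39 genes. CACGTG, which reads the same on both strands, was found in 6 of those 32 (18.8%), in Atg14, Atg3, Atg5, Atg7, Bnip3 and Lamp1, beside 8.09% of the 27025 genes in the table. The longer TCACGTGA, which contains CACGTG, was found only in Atg3 among the 32 (3.1%), beside 1.12% of all genes. The FOXO motif GTAAACA, searched on both strands, was in 0 of the 32, beside 4.05% of all genes. A match is a run of letters and not a measured binding site, and the absence of a match covers this window only. The 150 bases just before the start are shown, 5′ to 3′ on the gene's strand with CACGTG in capitals, for 5 of the 6 genes that hold it and for Lamp2, which does not. They include Bnip3 and Lamp2, the genes with the lowest log2 changes over all 6 libraries, and genes of the conjugation system.
Lamp1, chr8:13159011-13159160, plus strand: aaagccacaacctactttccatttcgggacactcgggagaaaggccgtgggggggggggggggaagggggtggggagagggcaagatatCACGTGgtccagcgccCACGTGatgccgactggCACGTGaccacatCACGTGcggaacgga
Atg3, chr16:45158679-45158828, plus strand: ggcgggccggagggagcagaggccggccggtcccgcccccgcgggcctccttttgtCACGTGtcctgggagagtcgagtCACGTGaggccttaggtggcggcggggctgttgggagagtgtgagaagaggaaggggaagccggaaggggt
Atg7, chr6:114670946-114671095, plus strand: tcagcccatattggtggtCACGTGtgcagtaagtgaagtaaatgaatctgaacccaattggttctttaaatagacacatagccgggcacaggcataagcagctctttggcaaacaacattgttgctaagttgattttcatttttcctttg
Atg5, chr10:44268189-44268338, plus strand: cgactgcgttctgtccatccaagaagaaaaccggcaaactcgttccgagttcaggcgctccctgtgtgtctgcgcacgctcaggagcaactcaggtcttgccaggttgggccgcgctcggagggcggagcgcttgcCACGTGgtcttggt
Bnip3, chr7:138909507-138909656, minus strand: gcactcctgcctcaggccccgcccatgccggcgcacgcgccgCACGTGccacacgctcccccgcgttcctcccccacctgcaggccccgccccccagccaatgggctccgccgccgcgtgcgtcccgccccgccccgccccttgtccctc
Lamp2, chrX:38456461-38456610, minus strand: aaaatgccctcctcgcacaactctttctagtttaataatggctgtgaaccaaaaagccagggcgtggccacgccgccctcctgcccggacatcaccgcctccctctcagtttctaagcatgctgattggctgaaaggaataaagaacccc
Lamp1 held 4 copies, whose first bases lie 61, 45, 28 and 15 bases before the start, and Atg3 held 2, at 94 and 71 bases before it. Atg7, Atg5 and Bnip3 held 1 copy each. Whether the motif bears on the levels was not tested.

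The induction complex joins the kinases ULK1 or ULK2 to FIP200 (Rb1cc1), ATG13 and ATG101, and receives the signals of mTORC1 and AMPK. Of its 5 genes, 4 were below every control in radiotherapy replicates 1 and 2, and Ulk1, Rb1cc1 and Atg13 were above every control in replicate 3. Ulk2 was the gene separated between the groups: it was at 16.1, 8.14 and 12.9 TPM in the controls and 5.54, 6.73 and 7.46 TPM after radiotherapy. Every radiotherapy library was below the lowest control, by a small margin in replicate 3. Its groups overlapped under median-of-ratios scaling, under quantile normalisation and when rescaled without mitochondrial genes and the 20 most abundant. The mean was 12.4 ± 4.02 TPM in controls and 6.58 ± 0.969 TPM after radiotherapy (SD, n = 3 each), with a log2 change of -0.78 (SE 0.31, limma adjusted p = 0.332). Atg101, the most abundant of the complex on the TPM scale, which is per length, was at 53.5, 79.5 and 47.7 TPM in controls and 37.1, 32.2 and 49.4 TPM after radiotherapy. Radiotherapy replicate 3 lay among the controls there. Rb1cc1 and Atg13 were added after their values were seen. Rb1cc1 was even in the controls, at 43.6 to 48.0 TPM, and stood at 16.8, 20.02 and 61.2 TPM after radiotherapy. Atg13 had the same pattern, at 12.5 to 14.8 TPM in controls and 5.42, 5.02 and 23.0 TPM after radiotherapy. In the fit without radiotherapy replicate 3, Rb1cc1 and Atg13 were called lower, with log2 changes of -1.26 and -1.23 and adjusted p of 0.0126 and 0.0133 by limma. Neither was called when the values were also scaled by the median of ratios (limma adjusted p 0.137 and 0.068).

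The ULK kinases differed from each other. Ulk1, chosen for description after its values were seen, was at 17.8, 5.41 and 17.5 TPM in controls and 4.46, 6.58 and 28.9 TPM after radiotherapy, so control 2 was itself as low as radiotherapy replicates 1 and 2. The ratio of Ulk1 to Ulk2 was 1.11, 0.665 and 1.36 in controls and 0.805, 0.978 and 3.87 after radiotherapy. Only radiotherapy replicate 3 was outside the control range of that ratio.

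The lipid kinase complex consists of the catalytic subunit VPS34 (Pik3c3), its regulatory kinase VPS15 (Pik3r4), Beclin 1 (Becn1) and ATG14, which directs the complex to autophagy. All 4 genes were below every control in radiotherapy replicates 1 and 2. Pik3c3 was at 7.13, 7.53 and 6.27 TPM in controls and 3.33, 3.31 and 5.93 TPM after radiotherapy, and was the gene of the complex with no overlap between the groups. Its mean was 6.98 ± 0.644 TPM in controls and 4.19 ± 1.51 TPM after radiotherapy (SD, n = 3 each), a log2 change of -0.65 (SE 0.28, limma adjusted p = 0.346). Becn1, the most abundant of the complex per length, was at 57.8, 46.4 and 42.2 TPM in controls and 20.6, 21.8 and 49.8 TPM after radiotherapy. Replicates 1 and 2 were well below the lowest control and replicate 3 was within the control range. Atg14 and Pik3r4 in replicate 3, at 6.91 and 6.72 TPM, were above their control ranges of 2.77 to 3.48 and 3.68 to 4.66 TPM. Pik3r4 had the smallest log2 change of the 38 genes, -0.06. Without radiotherapy replicate 3, Becn1, Pik3c3 and Atg14 were called lower, with log2 changes of -1.16, -0.88 and -0.73 and limma adjusted p of 0.0164, 0.0231 and 0.0413, and Pik3r4 was not (0.166). Scaled by the median of ratios as well, none of the 4 was called, with limma adjusted p from 0.135 to 0.534.

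WIPI proteins read the lipid mark, ATG2 proteins form a bridge for lipids from the endoplasmic reticulum and ATG9 scrambles lipids between the leaflets of the membrane. All 5 genes of this step were below every control in radiotherapy replicates 1 and 2, and Wipi1 alone was above every control in replicate 3. Atg9a was at 72.0, 77.5 and 41.6 TPM in controls and 26.2, 24.7 and 38.1 TPM after radiotherapy. The groups did not overlap, although replicate 3 came close to control 3. The mean was 63.7 ± 19.4 TPM in controls and 29.7 ± 7.31 TPM after radiotherapy (SD, n = 3 each), and the log2 change was -1.05 (SE 0.35, limma adjusted p = 0.306). Atg2b was at 6.57, 6.76 and 5.16 TPM in controls and 3.16, 3.19 and 5.15 TPM after radiotherapy. Its groups did not overlap but nearly touched, between replicate 3 and control 3 (log2 change -0.59, SE 0.27, limma adjusted p = 0.36). They overlapped under quantile normalisation. Wipi1, chosen for description after its values were seen, was at 27.5, 36.0 and 24.6 TPM in controls and 12.2, 10.6 and 68.8 TPM after radiotherapy. Its means were nearly equal, at 29.4 ± 5.93 TPM in controls and 30.5 ± 33.2 TPM after radiotherapy (SD, n = 3 each), and hide a low pair and a high library. When radiotherapy replicate 3 was left out, all of this step but Atg2a were called lower, beside 27.6% of all tested genes. Their adjusted p ran from 0.0168 for Wipi1 to 0.0361 for Atg2b by limma. None of the 5 was called when median-of-ratios scaling was added (limma adjusted p 0.148 to 0.96).

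The conjugation system consists of the E1-like ATG7, the E2-like ATG3 and ATG10, the complex of ATG12, ATG5 and ATG16L1 that places ATG8 proteins on lipid, and the ATG4 proteases, which prepare ATG8 proteins and release them. It was the group of enzymes with the smallest differences: its median log2 change was -0.29 over 9 tested genes, 0.07 above that of all tested genes. No gene of it was separated among those tested, beside 19.3% of all tested genes with every radiotherapy library lower. In radiotherapy replicates 1 and 2, 6 of the 9 were below every control, beside 58.8% of all tested genes. Atg4d, whose product is reported to act at mitochondria, was at 27.5, 32.7 and 19.8 TPM in controls and 14.1, 11.0 and 21.1 TPM after radiotherapy, with replicate 3 inside the control range. It had the smallest p of the step, and its log2 change was -0.77 (SE 0.34, limma adjusted p = 0.352). Atg4c, which was too low to be tested, was at 1.34, 0.86 and 1.14 TPM in controls and 0.8, 0.53 and 0.4 TPM after radiotherapy. Every radiotherapy library was below every control, at low levels whose read depth is unknown. The E1-like Atg7 was at 5.69, 7.79 and 3.54 TPM in controls and 4.56, 3.06 and 7.62 TPM after radiotherapy, and its groups overlapped throughout. Atg5, Atg12, Atg16l1 and Atg4b were above every control in replicate 3, Atg4b with 17.0 TPM against at most 14.02 TPM. In the fit without radiotherapy replicate 3, Atg5, Atg4b and Atg4d were called lower, with limma adjusted p of 0.0228, 0.0376 and 0.0379, and the other 6 tested genes were not. Median-of-ratios scaling of those libraries left none of the 3 called (limma adjusted p 0.251, 0.565 and 0.389).

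**Figure D3:**
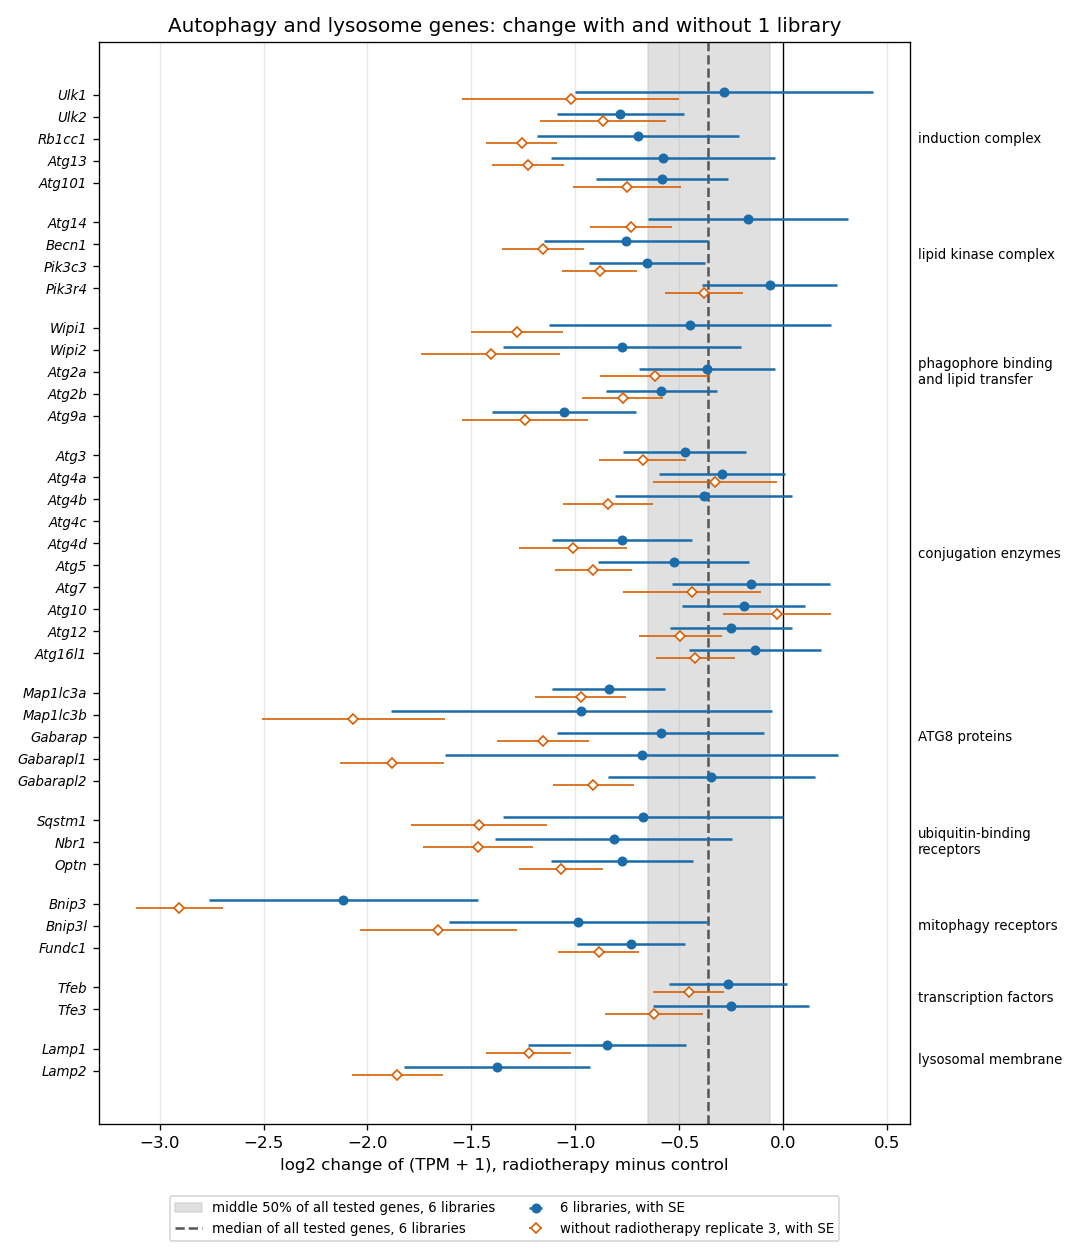
Log2 change of TPM + 1, radiotherapy minus control, with its SE, for each tested gene over all 6 libraries (blue) and without radiotherapy replicate 3 (orange). The dashed line and grey band are the median and the middle 50% of all tested genes over 6 libraries, -0.65 to -0.06, and the blue points of Bnip3 and Lamp2 lie furthest below them.

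ATG8 proteins are the coat that defines the autophagosome, and the 5 measured genes were among the most abundant of the 39. All 5 were below every control in radiotherapy replicates 1 and 2, and all but Map1lc3a were above every control in replicate 3. Summed over the family, the level was 1595, 2156 and 1261 TPM in controls and 698, 589 and 2487 TPM after radiotherapy. Map1lc3a, which encodes LC3A, was at 607, 642 and 482 TPM in controls and 336, 253 and 385 TPM after radiotherapy. It was the ATG8 gene with no overlap between the groups, with a mean of 577 ± 84.0 TPM in controls and 325 ± 66.7 TPM after radiotherapy (SD, n = 3 each). Under median-of-ratios scaling its groups overlapped. The log2 change was -0.84 (SE 0.27, limma adjusted p = 0.306). Map1lc3b, which encodes LC3B, the usual marker of autophagosomes, was at 502, 889 and 305 TPM in controls and 125, 119 and 1202 TPM after radiotherapy. Replicate 3 was thus the highest and replicates 1 and 2 the lowest of the 6 libraries, and the log2 change of -0.97 had an SE of 0.92 (limma adjusted p = 0.594). Gabarapl1, chosen for description after its values were seen, had the same shape at 53.5, 57.5 and 84.5 TPM in controls and 15.3, 18.0 and 212.8 TPM after radiotherapy.

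The make-up of the family differed between libraries too. LC3A gave 29.8% to 38.2% of ATG8 transcripts in the controls, 48.2% and 43.0% in radiotherapy replicates 1 and 2 and 15.5% in replicate 3. LC3B gave 24.2% to 41.2% in the controls, 17.9% and 20.2% in radiotherapy replicates 1 and 2 and 48.4% in replicate 3. Each radiotherapy library was therefore outside the control range for both, in opposite directions. The ratio of Map1lc3b to Map1lc3a, which does not depend on how a library is scaled, was 0.826, 1.38 and 0.632 in controls and 0.373, 0.469 and 3.12 after radiotherapy. Gabarap stayed between 22.7% and 28.0% of the family in all 6 libraries. Without radiotherapy replicate 3, all 5 genes were called lower, beside 27.6% of all tested genes. Their log2 changes ran from -2.07 for Map1lc3b to -0.91 for Gabarapl2 and their limma adjusted p from 0.0124 to 0.0276. With median-of-ratios scaling as well, none of the 5 was called (limma adjusted p 0.0747 to 0.535).

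**Figure D4:**
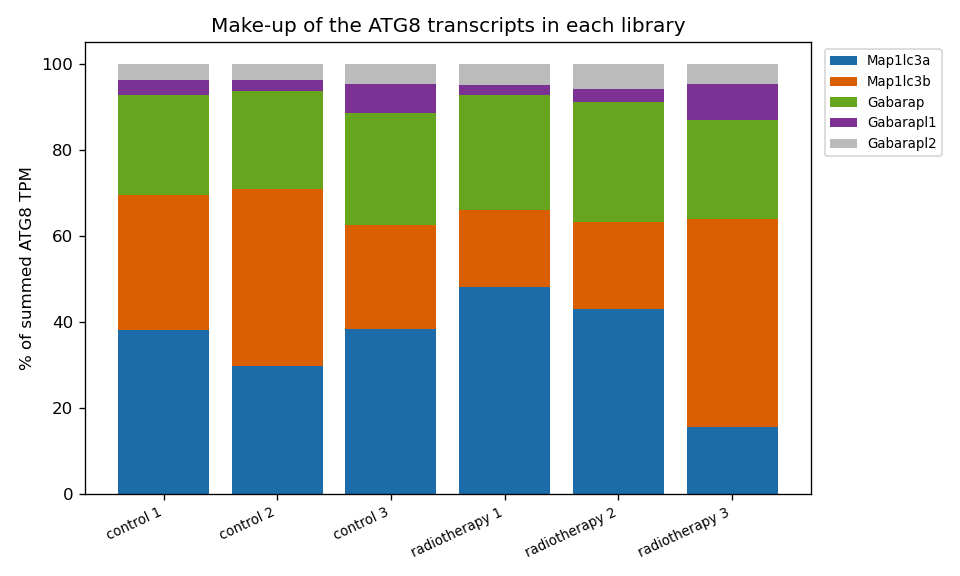
Share of each ATG8 gene in the summed ATG8 TPM of each library, as stacked percent. LC3A (Map1lc3a, blue) takes 48.2% and 43.0% in radiotherapy replicates 1 and 2 and 15.5% in replicate 3, while LC3B (Map1lc3b, orange) takes 48.4% in replicate 3.

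Ubiquitin-binding receptors link tagged cargo to ATG8 proteins. All 3 genes were below every control in radiotherapy replicates 1 and 2, and their median log2 change was -0.77. Sqstm1 encodes p62, which gathers ubiquitinated proteins into aggregates, and was the most abundant of the 39 genes per length. It was at 646, 1165 and 604 TPM in controls and 249.8, 310.02 and 1439.7 TPM after radiotherapy. The mean was 805 ± 312 TPM in controls and 667 ± 670.3 TPM after radiotherapy (SD, n = 3 each), so the spread of the radiotherapy group was as large as its mean, and the limma adjusted p was 0.613. Optn encodes optineurin, a receptor for mitochondria and bacteria, and had the smallest p of the step, with 60.0, 60.5 and 46.8 TPM in controls and 28.4, 23.5 and 48.7 TPM after radiotherapy. Replicate 3 lay just inside the lower end of the control range (log2 change -0.77, SE 0.34, limma adjusted p = 0.353). Nbr1, a receptor that works beside p62, was at 29.9 to 52.5 TPM in controls and 13.4, 13.3 and 54.8 TPM after radiotherapy. When radiotherapy replicate 3 was left out, all 3 receptors were called lower, beside 27.6% of all tested genes. The log2 changes were -1.46 for Sqstm1, -1.47 for Nbr1 and -1.07 for Optn, with limma adjusted p of 0.0274, 0.0187 and 0.0203. After median-of-ratios scaling of those libraries, none of the 3 was called (limma adjusted p 0.244, 0.13 and 0.221).

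BNIP3, BNIP3L (NIX) and FUNDC1 sit in the outer mitochondrial membrane and bind ATG8 proteins directly, which marks mitochondria for removal. They and the lysosomal membrane proteins were the steps in which no gene was above every control in radiotherapy replicate 3, beside 31.5% of all tested genes. Bnip3 was at 385, 482 and 342 TPM in controls and 48.6, 56.4 and 274 TPM after radiotherapy. Every radiotherapy library was below every control, by a wide margin in replicates 1 and 2 and a narrower one in replicate 3. The mean was 403 ± 72.1 TPM in controls and 126 ± 128 TPM after radiotherapy (SD, n = 3 each). Its log2 change of -2.12 (SE 0.65, limma adjusted p = 0.299) was the lowest of the 38 genes, and only 0.645% of all tested genes had a lower or equal one. In the fit without radiotherapy replicate 3, the log2 change was -2.91 and the limma adjusted p 0.0103.

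Fundc1 was at 12.8, 10.5 and 10.1 TPM in controls and 6.02, 5.06 and 7.99 TPM after radiotherapy, also with no overlap. Its mean was 11.1 ± 1.46 TPM in controls and 6.36 ± 1.49 TPM after radiotherapy (SD, n = 3 each), a log2 change of -0.73 (SE 0.26, limma adjusted p = 0.324). Bnip3l, whose product also clears mitochondria from maturing red cells, was at 77.7 to 185.7 TPM in controls and 34.3, 36.7 and 145.7 TPM after radiotherapy, with replicate 3 inside the control range. Erythroid marker genes summed to 312 to 1396 TPM in controls and 1307, 1245 and 847 TPM after radiotherapy, and their part in the Bnip3l values was not tested. The ratio of Bnip3 to Bnip3l was 3.75, 2.6 and 4.39 in controls and 1.42, 1.54 and 1.88 after radiotherapy. Each radiotherapy library was below the lowest control for that ratio, which does not depend on the scaling of the libraries, and the difference was not tested. Without radiotherapy replicate 3, Fundc1 and Bnip3l were called lower too, with limma adjusted p of 0.0262 and 0.028. Neither was called once those libraries were scaled by the median of ratios (limma adjusted p 0.309 and 0.178).

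LAMP1 and LAMP2 coat the inner face of the lysosomal membrane, and LAMP2 is needed for autophagosomes to fuse with lysosomes. Lamp2 was at 43.7, 30.8 and 43.3 TPM in controls and 9.48, 10.5 and 28.8 TPM after radiotherapy. Replicates 1 and 2 were far below the controls, and replicate 3 was just below the lowest of them. The mean was 39.3 ± 7.32 TPM in controls and 16.3 ± 10.9 TPM after radiotherapy (SD, n = 3 each), and the log2 change was -1.38 (SE 0.45, limma adjusted p = 0.306). Of all tested genes, 3.05% had a log2 change as low or lower. Lamp1, the more abundant of the pair per length, was at 398, 335 and 279.8 TPM in controls and 148, 138 and 313 TPM after radiotherapy, with replicate 3 inside the control range (log2 change -0.85, SE 0.38, limma adjusted p = 0.356). The ratio of Lamp1 to Lamp2 was 9.12, 10.9 and 6.47 in controls and 15.6, 13.1 and 10.9 after radiotherapy. When radiotherapy replicate 3 was left out, both were called lower, Lamp2 with a log2 change of -1.86 and a limma adjusted p of 0.0117 and Lamp1 with -1.22 and 0.0156. Under median-of-ratios scaling of those libraries, Lamp2 was still called and Lamp1 was not (limma adjusted p 0.041 and 0.123).

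**Figure D5:**
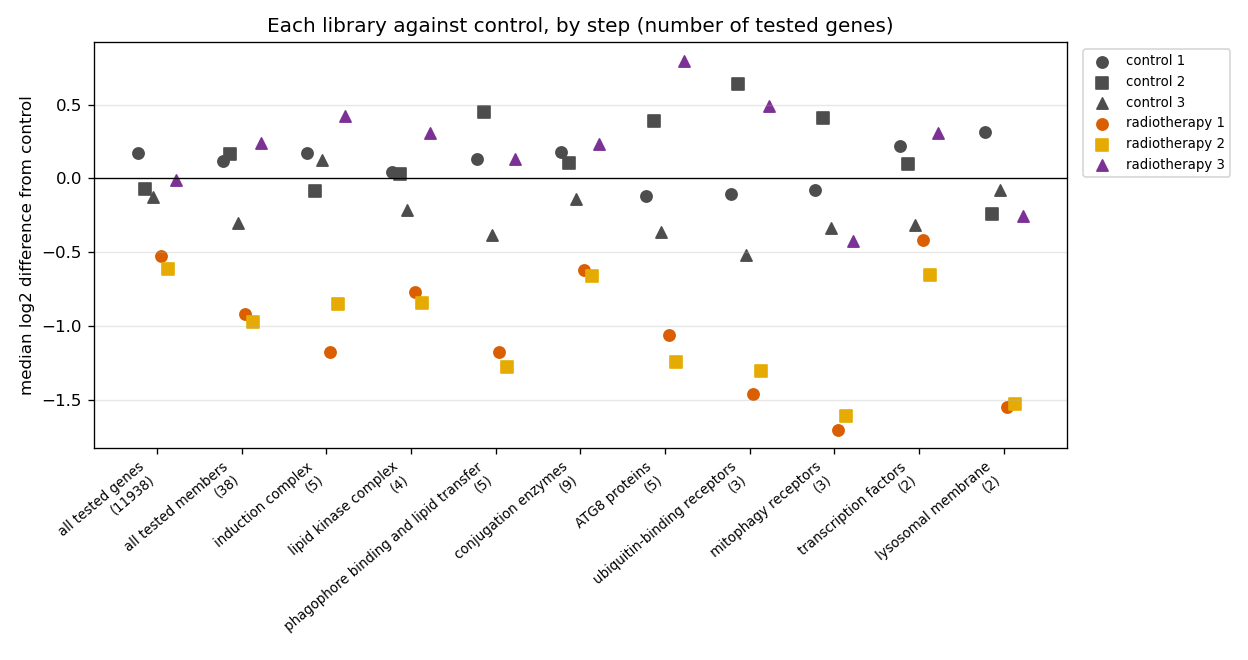
Median log2 difference of each library from control, for all tested genes, all tested autophagy and lysosome genes and each step, with the number of genes in brackets. A control library is compared with the mean of the other two controls and a radiotherapy library with the mean of all 3. Radiotherapy replicate 3 is at 0.80 for the ATG8 genes and at -0.42 for the mitophagy receptors.

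By step, radiotherapy replicate 3 lay on both sides of the control mean. Its median log2 difference from the control mean was 0.80 for ATG8 genes, 0.49 for ubiquitin-binding receptors, 0.43 for the induction complex and 0.31 for both the lipid kinase complex and the transcription factors. It was -0.42 for mitophagy receptors and -0.26 for the lysosomal membrane genes. Control 2, against the mean of the other controls, was at 0.64 for ubiquitin-binding receptors and at -0.24 for the lysosomal membrane genes. Radiotherapy replicates 1 and 2 were below 0 in all 9 steps, from -0.42 and -0.66 for the transcription factors to -1.70 and -1.61 for mitophagy receptors. With 2 to 9 genes per step these medians are descriptions and were not tested against each other.

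Around this core, 7 lists of related genes held 160 names, of which 157 were found and 146 tested. None of the 146 passed limma's adjusted threshold over all 6 libraries in either direction, beside 0.0586% of all tested genes. At an unadjusted limma p under 0.05, 21 were lower and 0 higher, and of all 11938 tested genes 1584 were lower and 141 higher. The log2 change was below 0 for 136 of them (93.2%) and for 78.5% of all tested genes. Of the 146, 29 (19.9%) were separated between the groups, all with the radiotherapy libraries lower, a share near the 19.3% of all tested genes. In the fit without radiotherapy replicate 3, 74 of the 146 (50.7%) were called lower and 0 higher by limma, beside 27.6% of all tested genes called lower. These counts are of unscaled values, and the lists were not counted under median-of-ratios scaling. For the 38 core genes, the calls without that replicate were 25 unscaled and 2 with that scaling. The list closest to all tested genes was that of the lysosomal enzymes, with a median log2 change of -0.36 over 28 genes, 22 of them below 0. The proton pump that acidifies the lysosome had a median of -0.40, with 17 of 17 genes below 0, 0 separated between the groups and 8 above every control in radiotherapy replicate 3. The shares of all tested genes for the same descriptions were 78.5%, 19.3% and 31.5%. The lysosomal membrane and transport list had a median of -0.43 and the fusion list -0.57. The upstream regulators were at -0.59, the further autophagy regulators at -0.69 and the further selective receptors at -0.71.

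Some single genes of these lists, taken from those with the smallest p, kept a lower level in radiotherapy replicate 3 as well. Of all tested genes, 19.3% were below every control in all 3 radiotherapy libraries. The values here are unscaled. Ncoa4, the receptor that carries ferritin to the lysosome, was even in each group, at 14.96, 14.3 and 14.1 TPM in controls and 6.28, 5.75 and 7.35 TPM after radiotherapy. Its mean was 14.5 ± 0.435 TPM in controls and 6.46 ± 0.815 TPM after radiotherapy (SD, n = 3 each), a log2 change of -1.06 (SE 0.23), and its limma adjusted p was 0.241. Stbd1, which tethers glycogen for lysosomal breakdown, was at 100.9, 77.2 and 64.0 TPM in controls and 38.6, 32.4 and 40.6 TPM after radiotherapy (log2 change -1.08, limma adjusted p = 0.277). Foxo1, a transcription factor that drives autophagy and atrophy genes in muscle, was at 8.23, 7.67 and 8.28 TPM in controls and 1.3, 2.32 and 3.96 TPM after radiotherapy. All 3 radiotherapy libraries were below the lowest control, with a log2 change of -1.43 and a limma adjusted p of 0.251. Trp53inp1, a p53 target that binds ATG8 proteins, was at 6.97, 4.46 and 8.57 TPM in controls and 1.11, 1.2 and 3.01 TPM after radiotherapy (log2 change -1.50, limma adjusted p = 0.258). Vps39, a subunit of the HOPS tethering complex, was at 6.64, 7.5 and 9.23 TPM in controls and 2.37, 1.96 and 4.53 TPM after radiotherapy (limma adjusted p = 0.277). Among the membrane proteins and enzymes, Scarb2, the carrier of glucocerebrosidase, was at 18.7 to 25.9 TPM in controls and 11.9, 9.96 and 12.2 TPM after radiotherapy (limma adjusted p = 0.277). The iduronate sulfatase Ids was at 3.65 to 4.58 TPM in controls and 2.03, 1.87 and 1.87 TPM after radiotherapy (limma adjusted p = 0.288). Atp6v1c1, a proton pump subunit, and Rab7, the GTPase of late endosomes, followed the pattern of Becn1 instead. Atp6v1c1 was at 19.0 to 24.2 TPM in controls and 7.27, 6.96 and 22.6 TPM after radiotherapy. Rab7 was at 201.5 to 281.4 TPM in controls and 97.5, 84.6 and 214.9 TPM after radiotherapy.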

How the data were processed

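Gastrocnemius RNA of 3 control and 3 radiotherapy libraries was sequenced after TruSeq preparation, per the labels' protocols. The values deposited by the authors are TPM, scaled for length and total. HISAT2, StringTie, RSEM and the build mm9 are named, without versions or roles, per the submitters' processing notes. Strand and read counts are not given in the sources used here, so depth is unknown and no count test was made. Because mm9 differs from the reference build, no gene coordinates are given except those of RefSeq promoter windows on GRCm38.p6.

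The test was run on log2(TPM + 1) of all features whose mean was 1 TPM or more, with limma 3.58.1 in R 4.3.3 (empirical Bayes with a trend, two-sided, no covariates), with Benjamini-Hochberg adjustment over the 11938 features. Fold changes on this scale understate those of low genes. An exact permutation test of 3 against 3 cannot go below 0.1. Counts and medians over the genes are descriptions. Per-library values are given for genes separated between the groups and, in each step, those with the smallest p and the highest mean. Ulk1, Rb1cc1, Atg13, Atg14, Pik3r4, Wipi1, Atg7, Gabarapl1, Nbr1, Bnip3l and Tfe3 lay outside that rule, and their library values were added after they were seen. Of each related list, up to 3 genes with the smallest p were eligible to be named. The genes, lists and rules were chosen with earlier results of these data known. Alternatives were other pseudocounts, filters, scalings, limma settings, a replicate block and leaving out each library. Pseudogenes of these genes in the table, Bnip3l-ps and Atg4a-ps, were at most at 0.07 TPM. Reads shared with pseudogenes could not be examined.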

Additional observations from a re-analysis of the deposited data

How the results depend on the processing

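With 3 libraries a group, the count of genes past the adjusted threshold was 0 under other pseudocounts, filters, limma settings and scalings, and over single left-out libraries it ran from 0 to 25, with 25 without radiotherapy replicate 3 by limma. With median-of-ratios scaling and no radiotherapy replicate 3 it was 2. The count lower in all radiotherapy libraries ran from 8 to 34 over left-out libraries (13 without control replicate 3, 34 without radiotherapy replicate 3) and was 21 with that scaling and no radiotherapy replicate 3. The count higher in all was 2 with median-of-ratios scaling (Atg16l1 and Tfeb), 1 with quantile normalisation (Atg16l1) and 3 with median-of-ratios scaling and no radiotherapy replicate 3 (Atg10, Atg16l1 and Tfeb). The share of all tested genes was 58.8% for the count of 34. It was not counted for the 13 and 21 lower or for these higher counts, so none of them is read as a result about these genes. The median log2 change of the 38 genes ran from -0.94 to -0.35 over left-out libraries. Of 640 recomputed values over 17 settings, 46 changed sign, in 14 genes, none of them past the threshold, and the cause was not tested. Under median-of-ratios scaling the log2 change was 0.13 for Ulk1, 0.14 for Atg14, 0.30 for Pik3r4, 0.029 for Atg2a, 0.15 for Atg4a, 0.034 for Atg4b, 0.23 for Atg7, 0.17 for Atg10, 0.13 for Atg12, 0.28 for Atg16l1, 0.12 for Gabarapl2, 0.20 for Tfeb and 0.11 for Tfe3. Without radiotherapy replicate 3 on that scale it was 0.18 for Pik3r4, 0.33 for Atg4a, 0.14 for Atg7, 0.49 for Atg10, 0.089 for Atg12, 0.21 for Atg16l1 and 0.24 for Tfeb. Rescaled without mitochondrial genes and the 20 most abundant, it was 0.13 for Pik3r4, 0.045 for Atg7 and 0.078 for Atg16l1. With quantile normalisation it was 0.017 for Ulk1, 0.091 for Atg14, 0.29 for Pik3r4, 0.007 for Atg2a, 0.10 for Atg4a, 0.035 for Atg4b, 0.23 for Atg7, 0.17 for Atg10, 0.12 for Atg12, 0.27 for Atg16l1, 0.085 for Gabarapl2, 0.11 for Tfeb and 0.083 for Tfe3. Over left-out libraries it ran from -1.02 to 0.20 for Ulk1, -0.73 to 0.15 for Atg14, -0.38 to 0.11 for Pik3r4, -1.28 to 0.019 for Wipi1, -0.44 to 0.11 for Atg7, -0.42 to 0.088 for Atg16l1 and -0.62 to 0.032 for Tfe3. The labels give both groups the same replicate numbers. Deviations of same-numbered libraries from their group means had correlations of -0.05, -0.11 and -0.20. Deviations from a mean of 3 libraries are tied to each other, so these values cannot tell whether the libraries were paired. With a replicate block, 0 of 38 genes passed and 8 were lower in all 3, as without it, and the smallest limma adjusted p was 0.6. Depth is unknown, so no detection limit can be given for low genes such as Atg4c.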
